A study of Mus musculus with 1479 samples.

Results

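Fibroblasts isolated from the bladders of Acta2GFP and PdgfrbGFP mice were compared within a single 384-well plate, named bladder_515s. The cells were chosen by their labels alone: wells of that plate whose deposited cluster label was not 10, the vascular mural cell cluster. This left 279 of the 1479 bladder cells in the series, 117 from Acta2GFP and 162 from PdgfrbGFP, out of 312 cells on the plate. All cells came from male mice of 10 to 20 weeks on a C57Bl6/J background. Acta2GFP is the transgene Tg(Acta2-GFP)1Pfk, in which Acta2 regulatory sequence drives green fluorescent protein. PdgfrbGFP is the transgene Tg(Pdgfrb-eGFP)JN169Gsat/Mmucd, a reporter for cells that use Pdgfrb. The study sorted cells by reporter or by antibodies to PDGF receptors, and against the endothelial surface protein CD31. The labels used here give the line and not the marker gated on. The study added elastase to the dissociation mix for Acta2GFP mice and did not name it for the other lines. Acta2GFP cells filled rows A to G and PdgfrbGFP cells rows H to P, so line, mouse, sort, enzyme mix and plate rows cannot be told apart. The plate and its sequencing lane were shared. The labels name no animal, so each line counts as 1 sample, no test was possible, and no p-value is given.

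Acta2 encodes smooth muscle actin, the actin of contractile cells, which fibroblasts also switch on when they become myofibroblasts. Pdgfrb encodes a receptor for platelet-derived growth factor that both mural cells and fibroblasts carry. Fibroblasts of the bladder wall make the collagens, proteoglycans and elastic fibres between the urothelium and the detrusor muscle. Cells taken out of tissue by enzymes at body temperature are known to switch on immediate-early and heat shock genes while they are being dissociated.

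Levels are given as normalised reads, the mean over cells after the gene reads of each cell were scaled to 500000, and differences as the log2 ratio of (level + 1), Acta2GFP over PdgfrbGFP. A gene counts as higher or lower when this ratio reaches 1 in size, a 2-fold difference. Gene reads per cell ran from 58487 through a median of 145491 to 665151 in Acta2GFP and from 49365 through 113092.5 to 237934 in PdgfrbGFP. Reads per spike-in read, a measure of RNA per well, had medians of 89.0 and 89.6. The median number of genes with a read was 4165 in Acta2GFP and 3891 in PdgfrbGFP, and the median mitochondrial share was 1.27% and 1.12%.

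Both groups carried fibroblast markers. All 10 passed the filter on low counts, none reached the 2-fold rule, which 9.04% of all genes passed, and their log2 ratios lay between -0.26 and 0.53 with a median of 0.11. Their summed level was 22160 normalised reads in Acta2GFP and 20970 in PdgfrbGFP, against 863 and 826 in the mural cells of the same plate. Of the 9 vascular mural markers, 2 passed the filter, neither reached the fold rule, and Higd1b stood at 0 in both lines. Their summed level was 118 in Acta2GFP fibroblasts and 85.9 in PdgfrbGFP fibroblasts, with row means from 46.9 to 199 and from 47.5 to 157, while mural cells held 4378 and 4581. Endothelial markers summed to 61.0 and 63.8, with Cdh5 at 0 in both lines, and Schwann cell markers to 52.4 and 52.3, with Sox10 at 0 in both. Leukocyte markers summed to 4.57 and 9.11, with Cd3e and Cd79a at 0 in both lines and Ptprc at 0 in Acta2GFP only. The 1 member that passed the filter, Csf1r, was lower in Acta2GFP with a ratio of -1.37 (4.63% of all genes). The study had removed cells with endothelial or immune signatures and cells without Pdgfra or Pdgfrb, which bears on these sums and on the levels of both receptors. Urothelial markers came to 1.26 and 0.557 and mesothelial markers to 1.05 and 0.679, and no member of either list passed the filter.

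The cluster labels of the 2 groups were not alike. The study assigned them from the expression values of these cells, so they are no independent measure. Cluster 3 held 37 of 117 Acta2GFP cells (31.6%, exact 95% binomial interval 23.3% to 40.9%) and 78 of 162 PdgfrbGFP cells (48.1%, 40.2% to 56.1%). Cluster 11 held 43 Acta2GFP cells (36.8%, 28.0% to 46.2%) and 4 PdgfrbGFP cells (2.47%, 0.677% to 6.20%). Cluster 8 held 11 and 35 cells, cluster 7 held 9 and 22, cluster 1 held 7 and 8, and cluster 6 held 6 and 9. Cluster 5, which carries the sub-epithelial fibroblast genes, held 5 PdgfrbGFP cells, all in rows N and O, and 0 of 117 Acta2GFP cells, an exact interval of 0 to 3.10%. These intervals cover counting error only. Because of this make-up, each ratio was taken in 5 views: all cells, all cells without cluster 11, cluster 3 alone, clusters 1, 3, 6, 7 and 8 with equal weight, and cells of 100000 to 250000 gene reads.

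The genes behind the reporters did not separate the groups by 2-fold over all cells. Acta2 (chromosome 19, 34241090 to 34255590, minus strand, GRCm38) ran from 0 through a median of 25.8 to 2277 normalised reads in Acta2GFP cells and from 0 through 24.5 to 749 in PdgfrbGFP cells. The means were 97.9 and 70.6, a log2 ratio of 0.47, and the ranges of the cells overlapped. With the 5 clusters at equal weight the ratio of Acta2 was 1.20, past the fold rule, and without the top 5% of cells it was -0.002. Vascular mural markers differed within those clusters too, with sums of 163 against 16.4 in cluster 7 and 377 against 187 in cluster 8, but 77.2 against 139 in cluster 6. The medians were 14.5 and 3.48 in cluster 7, 144 and 75.5 in cluster 8 and 9.76 and 48.0 in cluster 6, so a few cells carried much of these sums, and their part in the Acta2 values was not tested. Fibroblasts of other lines and plates had Acta2 means from 49.0 to 177, a range that holds both values. In the mural cells of the plate Acta2 stood at 5180 in Acta2GFP and 6759 in PdgfrbGFP. Acta2 was also read by the number of mural cells in the same row or column of the plate. In PdgfrbGFP it was 6.94 in the 39 cells with 0 or 1 such mural cell, 104 in the 50 cells with 2 or 3, and 81.6 in the 73 cells with 4 or more. The medians of these PdgfrbGFP cells were 4.01, 27.3 and 40.5. In Acta2GFP the corresponding means were 101, 90.7 and 109 and the medians 12.8, 22.1 and 32.7, so the medians were higher with more mural cells in both lines. What part neighbouring mural cells had in the Acta2 values was not tested.

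Pdgfrb was lower in Acta2GFP fibroblasts, short of 2-fold. It ran from 0 through a median of 160 to 1239 normalised reads in Acta2GFP cells and from 0 through 270 to 1524 in PdgfrbGFP cells, with means of 211 and 347 and a log2 ratio of -0.71. After each cell was thinned to 50000 reads, 82.1% of Acta2GFP and 98.8% of PdgfrbGFP cells had a Pdgfrb read. On the 2 other plates of PdgfrbGFP cells the mean was 235 and 203, so the Acta2GFP mean lay inside the range of the PdgfrbGFP plates. The medians on those plates were 199.6 and 190.0, and 99.2% and 97.5% of thinned cells had a read. By median and by share of cells, Acta2GFP thus lay below every PdgfrbGFP plate. C57BL6 fibroblasts, which carry no reporter, had a mean of 195, a median of 157 and a read in 81.3% of thinned cells. The mural cells of plate bladder_515s had the same order, 348 in Acta2GFP and 655 in PdgfrbGFP. Pdgfra, the receptor that marks fibroblasts, had means of 384 and 350, a ratio of 0.13. Cspg4, a pericyte proteoglycan, was at 1.17 and 1.29 and did not pass the filter.

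**Figure D1:**
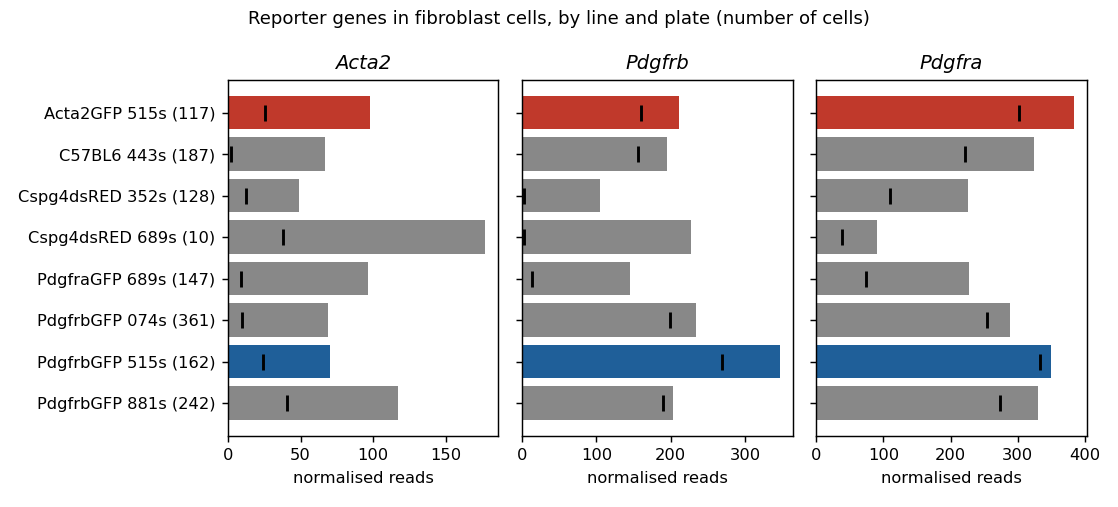
Mean normalised reads (bars) and median (black ticks) of Acta2, Pdgfrb and Pdgfra in fibroblasts of each line and plate, with the number of cells in brackets. Red marks Acta2GFP and blue PdgfrbGFP on plate bladder_515s; Acta2 in both lies within the span of the other plates, 49.0 to 177, while Pdgfrb is highest in PdgfrbGFP cells of this plate.

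Genes beside the transgenes' home loci were also read, within 200 kb. Next to Acta2, Stambpl1 had 16.7 and 21.9 normalised reads and Fas, a death receptor, 7.08 and 10.1 in Acta2GFP and PdgfrbGFP, while Lipk, Lipn, Lipm and Ankrd22 had no reads in either. Next to Pdgfrb, Arsi, a sulfatase gene, was higher in Acta2GFP with 50.8 against 14.9, a ratio of 1.71 that was 0.84 in cluster 3 alone, and the PdgfrbGFP plates bladder_074s and bladder_881s had 18.8 and 14.1. Csf1r, the receptor for macrophage colony-stimulating factor, was lower with 1.92 against 6.55, a ratio of -1.37 that fell just short of the fold in cluster 3, at -0.997. Slc26a2, a sulfate transporter gene, had 23.7 and 13.8. Csf1r and Hmgxb3 overlap on opposite strands, and the counting does not say whether it used strand.

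Across the transcriptome most genes lay within 2-fold, and the share past it depended on the view. Of 9628 genes that passed the filter, 424 were higher in Acta2GFP (4.40%) and 446 lower (4.63%), 9.04% in all, and the median log2 ratio was 0.0029. By the same rule, PdgfrbGFP fibroblasts on bladder_074s had 958 genes higher (9.95%) and 297 lower (3.08%) than those on bladder_515s, and PdgfrbGFP fibroblasts on bladder_881s had 1219 higher (12.7%) and 300 lower (3.12%). Both comparisons share the PdgfrbGFP cells of bladder_515s. The other plates were deeper, with median gene reads of 264199 and 380183. The other views gave more genes past the fold. In cluster 3 alone 876 were higher (9.10%) and 1028 lower (10.7%), 19.8% in all. With clusters at equal weight 9.15% of genes were higher and 10.5% lower, 19.7% in all. Without cluster 11 there were 503 (5.22%) and 586 (6.09%), 11.3% in all, and in cells of 100000 to 250000 gene reads 572 (5.94%) and 825 (8.57%), 14.5% in all. Without clusters 5 and 9, which hold cells of 1 line only, 449 were higher (4.66%) and 427 lower (4.43%). Among the 4006 genes read in at least 30% of the thinned cells of a line, 70 were higher (1.75%) and 47 lower (1.17%). The balance of higher and lower genes depended on how cells were averaged: the mean of log2 values gave 153 higher and 82 lower, and the mean without the top 5% of cells 949 and 601. The scatter of both lines' levels shows most genes between the 2-fold lines, with the widest spread at low levels.

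**Figure D2:**
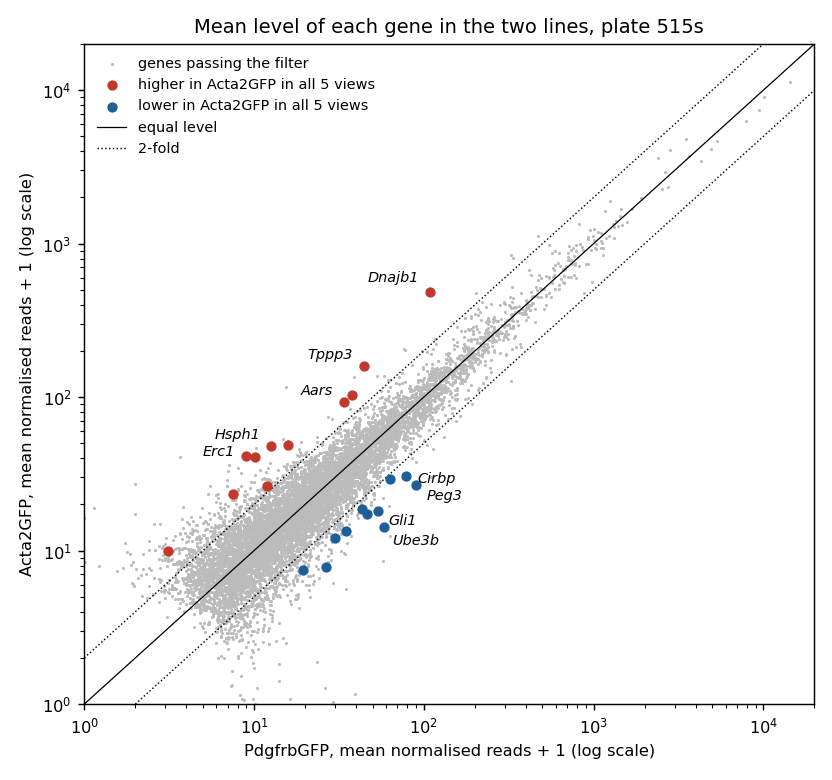
Mean normalised reads plus 1 of each of the 9628 genes in PdgfrbGFP (x axis, log scale) and Acta2GFP fibroblasts (y axis, log scale) of plate bladder_515s, with lines of equal level and of 2-fold difference. Red and blue points are the 11 genes higher and the 11 lower in Acta2GFP in all 5 views; Dnajb1 and Tppp3 are the most abundant of the red points.

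Genes were then kept that passed 2-fold in all 5 views and had a read in at least 30% of thinned cells of the higher line. Their Acta2GFP level also had to lie outside the range of the 3 PdgfrbGFP plates. The views draw on the same cells and on labels made from their expression, so the part of cluster make-up and depth was not tested. The fold alone left 111 higher and 126 lower genes, the share of cells 14 and 12, and the range 11 in each direction, 0.114% of genes each way. The 11 higher genes were Tppp3, Gm29408, Aars, Gm29371, Hlf, Gm12840, B3gnt8, Dnajb1, Erc1, Lgi2 and Hsph1. The 11 lower genes were Klf11, Cirbp, Gli1, Abca6, Secisbp2l, Ube3b, Peg3, Zfp945, Zfp871, Rbm17 and Mafk. Gm29408, Gm29371 and Gm12840 are annotated as long noncoding RNAs.

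Among the higher genes other than chaperones, Tppp3, which encodes a tubulin polymerization-promoting protein, ran from 0 through a median of 98.1 to 789 normalised reads in Acta2GFP cells and from 0 through 0 to 542 in PdgfrbGFP cells. Its means were 158 and 43.3, a log2 ratio of 1.84, and it was at 82.7 and 72.4 on the other PdgfrbGFP plates. In cluster 3 alone the ratio was 1.61. Reads were found in 69.2% of thinned Acta2GFP cells and 34.4% of PdgfrbGFP cells. Aars, the alanyl-tRNA synthetase gene, had 91.9 against 32.9, a ratio of 1.46, with 48.2 and 31.1 on the other plates. Erc1, a scaffold protein gene of vesicle release sites, had 40.1 against 7.95, with row means of 26.2 to 61.6 in Acta2GFP and 0 to 20.8 in PdgfrbGFP, which did not overlap. Hlf, a clock-controlled PAR bZIP factor, had 25.3 against 10.9, and Lgi2, a secreted leucine-rich repeat protein gene, 39.6 against 9.16. The noncoding Gm12840 had 102 against 36.9 and was read in 88.0% and 70.6% of thinned cells. Erc1 overlaps Gm44317 and Lgi2 overlaps Gm43685 on the opposite strand.

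Cirbp, the gene of the cold-inducible RNA-binding protein, was one of the lower genes whose plate rows did not overlap. It ran from 0 through a median of 0 to 346 normalised reads in Acta2GFP cells and from 0 through 52.9 to 423 in PdgfrbGFP cells. The means were 29.7 and 77.8, from 1003 reads (exact 95% Poisson interval 942 to 1067) and 3081 reads (2973 to 3192), a log2 ratio of -1.36. Poisson intervals here and below cover counting error only, not the spread between cells or mice. In cluster 3 alone the ratio was -2.54. Cirbp stood at 104 and 88.7 on the other PdgfrbGFP plates, above both lines of plate bladder_515s. Row means lay between 9.20 and 52.9 in Acta2GFP and between 54.4 and 106 in PdgfrbGFP, so no row of one line reached the other. Thinned to one depth, 39.3% of Acta2GFP cells (exact interval 30.4% to 48.8%) and 72.5% of PdgfrbGFP cells (64.9% to 79.3%) had a Cirbp read. In mural cells Cirbp was at 56.6 and 93.8.

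Peg3, an imprinted zinc finger gene, had 25.6 normalised reads in Acta2GFP against 88.9 in PdgfrbGFP, a ratio of -1.76, with 47.6 and 51.2 on the other PdgfrbGFP plates. Abca6, a lipid transporter gene of the ABC family, had 6.87 against 25.4, and its row means of 0.245 to 11.2 and 13.6 to 53.3 did not overlap. Ube3b, a ubiquitin ligase gene, had 13.3 against 56.9, the largest of the lower ratios over all cells at -2.01. Klf11, a TGF-beta-inducible Krueppel-like factor, had 16.3 against 45.2 and a ratio of -3.12 in cluster 3. Mafk, a small Maf factor that pairs with the stress regulator Nrf2, had 28.5 against 62.5. Rbm17, a splicing factor gene, had 12.5 against 33.9, and Zfp871, Zfp945 and Secisbp2l had ratios of -1.21, -1.38 and -1.32. These rarer transcripts were read in 10.3% to 39.3% of thinned Acta2GFP cells, so most of those cells gave no read for them.

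**Figure D3:**
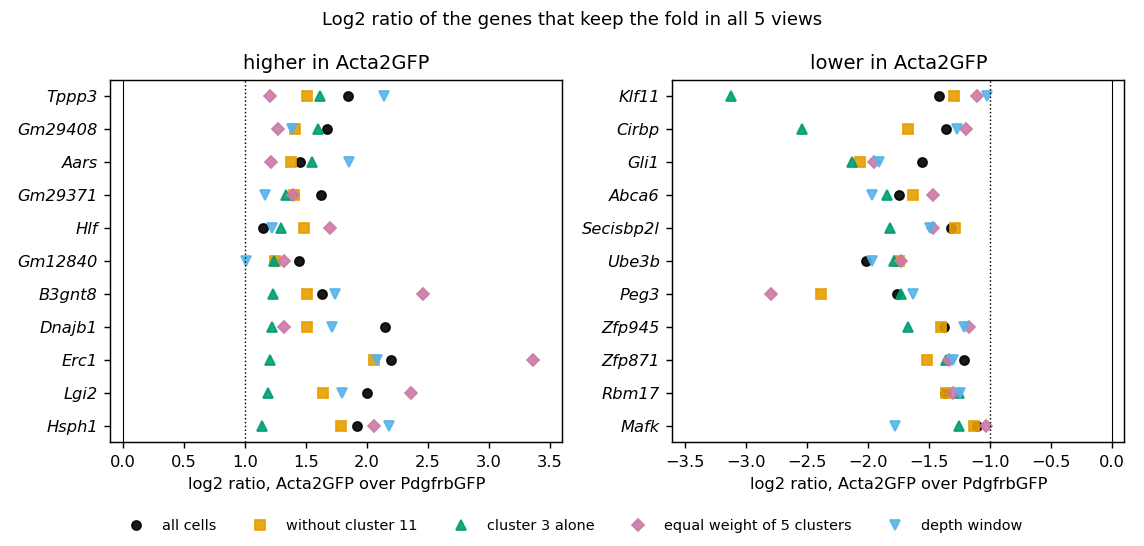
Log2 ratio (x axis, Acta2GFP over PdgfrbGFP) of the 11 higher genes (left) and the 11 lower genes (right) in each of the 5 views, marked by symbol; the dotted line is the 2-fold rule. By construction all points lie beyond it; Klf11 and Cirbp are lowest in cluster 3, at -3.12 and -2.54, and Erc1 reaches 3.36 with clusters at equal weight.

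Heat shock genes stood higher in Acta2GFP fibroblasts. Of 15 listed chaperone genes, all of which passed the filter, 6 were higher and 0 lower (4.40% and 4.63% of all genes), 14 had a ratio above 0, and the median ratio was 0.85 against 0.0029 over all genes. Among genes read in at least 30% of thinned cells the share higher was 1.75%. The list holds cytosolic chaperones under heat shock factor 1, mitochondrial ones such as Hspe1, and Hspa5, the chaperone of the endoplasmic reticulum. Heat shock factor 1 binds inverted repeats of nGAAn, here searched as GAANNTTC on both strands. In RefSeq promoters (GRCm38.p6, 250 bases before to 50 after a start) these letters occurred in 7.86% of 32851 promoters and in 10 of the 16 promoters, 62.5%, of the 11 heat shock genes found in the table. The list was chosen as heat shock genes, so this share describes the list and not these cells. Hspd1 and Hspe1 share the same match, and that of Hsph1 was counted in overlapping promoters. To show the match in members that were higher, the 250 bases before the start of Hspb1 (chr5:135887669-135887918, plus strand, overlapping no exon) and windows of 30 bases for Hspe1 (chr1:55088053-55088082, plus strand, the first capital 84 bases before the start, inside an exon of its divergent neighbour Hspd1) and Hsph1 (chr5:149636277-149636306, minus strand, in an exon of Hsph1) read, 5′ to 3′ with the matches in capitals:
Hspb1: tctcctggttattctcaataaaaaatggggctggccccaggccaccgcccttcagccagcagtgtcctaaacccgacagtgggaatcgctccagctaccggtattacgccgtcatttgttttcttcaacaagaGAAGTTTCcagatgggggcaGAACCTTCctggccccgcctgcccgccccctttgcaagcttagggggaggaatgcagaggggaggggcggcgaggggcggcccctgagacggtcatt
Hspe1: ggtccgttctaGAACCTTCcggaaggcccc
Hsph1: tgcagattctgGAAAGTTCtcctcagtagg
The windows of Dnajb1 and Hspa5, both higher, did not hold these letters, and Hsp90aa1, also higher, was not among the promoters searched. Every searched member short of the fold held them: Bag3, Dnaja1, Hspa1a, Hspa1b, Hspb8 and Hspd1. The letters therefore did not set the higher members apart. Hspb8 had a ratio of -0.06. These members short of the fold were named after their values were seen.

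Dnajb1, the co-chaperone that hands clients to Hsp70, had the widest difference of the list. It ran from 0 through a median of 87.2 to 5158 normalised reads in Acta2GFP cells and from 0 through 8.25 to 2689 in PdgfrbGFP cells. The means were 481 and 108, from 16810 reads (exact 95% Poisson interval 16557 to 17066) and 4239 reads (4112 to 4369), a log2 ratio of 2.15 that was 1.23 in cluster 3 alone. On the other PdgfrbGFP plates Dnajb1 was at 152 and 100. Row means ran from 161 to 672 in Acta2GFP and from 28.4 to 260 in PdgfrbGFP, so the rows overlapped. Reads were found in 76.9% of thinned Acta2GFP cells and 58.1% of PdgfrbGFP cells. Hsph1, the nucleotide exchange factor Hsp110 whose window is printed above, had 46.9 against 11.7, a ratio of 1.92, and 11.7 and 14.1 on the other plates.

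Hspa5 ran from 0 through a median of 457 to 1474 normalised reads in Acta2GFP cells and from 0 through 152 to 1031 in PdgfrbGFP cells, with means of 478 and 203 and a ratio of 1.23. Its row means of 360 to 658 and 140 to 300.2 did not overlap. On the other PdgfrbGFP plates, however, Hspa5 was at 503 and 281, so the Acta2GFP level lay inside the range of that line. Hspe1, the mitochondrial co-chaperonin, had 40.3 against 17.3 (33.0 and 67.2 on the other plates), and Hspb1, a small heat shock protein gene, had 82.2 against 36.0 (71.5 and 46.9). Hsp90aa1, the inducible Hsp90, was the sixth with 240 against 116 and a ratio of 1.04, which was under 1 in every other view. In cluster 3 alone the ratio of Hspa5 was 0.92 and that of Hspe1 0.86, short of the fold, while that of Hspb1 was 1.497. Members short of the fold included Hspa8, the constitutive Hsp70, with 284 against 157 and row means of 240 to 330 and 106 to 209 that did not overlap. Hspa1a, the inducible Hsp70, had 981 against 546, and 267 and 163 on the other PdgfrbGFP plates. Hspa1a and Hspa1b are near-identical copies whose reads may be split, and both values are uncertain. Hsp90aa1, Hspa8, Hspa1a and Hspa1b were picked out after their values were seen.

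The summed level of the list was 3626 normalised reads in Acta2GFP and 1969 in PdgfrbGFP, with cells from 897 through a median of 2985 to 13524 and from 606 through 1724 to 8396. The row means, 2577 to 4511 and 1674 to 2514, did not overlap. Fibroblasts of the other lines and plates had sums of 1672 to 2497, all below the Acta2GFP value. Within cluster 3 the sums were 2699 and 1885, within cluster 8 they were 4360 and 2122, and within cluster 11 they were 4527 and 2533. In cluster 1 the means were 3650 in 7 cells and 3296 in 8, while the medians were 3383 and 1840. The mural cells of the same lines on this plate had the reverse order, 4571 in 12 Acta2GFP cells and 5075 in 21 PdgfrbGFP cells. Gene counts and the mitochondrial share moved with the groups in the small amounts given above, and their part in the heat shock values was not tested.

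**Figure D4:**
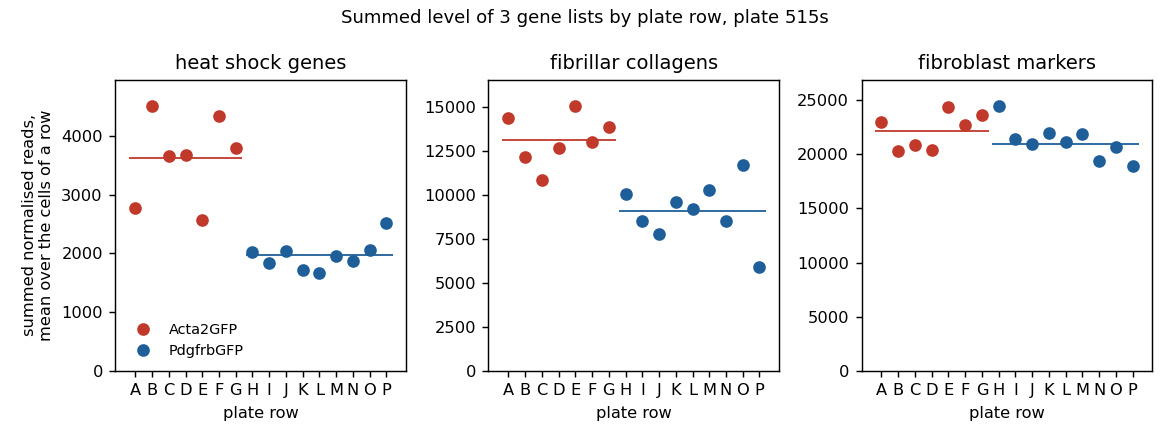
Mean over the cells of each plate row of the summed normalised reads of heat shock genes, fibrillar collagens and fibroblast markers; red rows A to G are Acta2GFP, blue rows H to P PdgfrbGFP, and lines are the means over cells. Heat shock rows do not overlap (2577 to 4511 against 1674 to 2514), collagen rows overlap in part, and marker rows overlap widely; rows share a mouse and a sort and are not replicates.

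Immediate-early genes, the transcription factors and feedback genes that cells switch on within minutes of a stimulus, were less uniform. Of 31 listed genes 28 passed the filter, 5 were higher and 1 lower (4.40% and 4.63% of all genes), 23 had a ratio above 0, and the median ratio was 0.48, or 0.17 in cluster 3 alone. The 3 orphan nuclear receptors of the Nr4a family were all among the higher genes. Nr4a1 ran from 0 through a median of 583 to 8408 normalised reads in Acta2GFP cells and from 0 through 174 to 4034 in PdgfrbGFP cells, with means of 1115 and 471 and a ratio of 1.24. On the other PdgfrbGFP plates Nr4a1 was at 700.3 and 574. Nr4a2 had 25.2 against 4.50, and Nr4a3 had 16.5 against 4.43, but the other PdgfrbGFP plates held 31.7 and 44.2 of Nr4a2 and 19.1 and 42.4 of Nr4a3, above both lines here. Fosb, an AP-1 subunit, had 204 against 75.8, with rows of 142 to 327 and 13.1 to 130.5 that did not overlap, and 174 and 171 on the other plates. Its ratio of 1.42 was 0.34 in cluster 3. In cluster 3 the ratio of Nr4a1 was 0.90 and that of Nr4a2 0.37, both short of the fold, and that of Nr4a3 1.39. Jund, an AP-1 subunit and the fifth, had 63.4 against 30.3 and overlaps Gm11175 on the opposite strand.

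Fos and Egr1, the classic members of the list, were short of the fold, with 1680 against 1447 and 1337 against 816 normalised reads. Ccn2, a matricellular target of YAP and TGF-beta, was lower in Acta2GFP: cells ran from 0 through a median of 43.6 to 1126 and from 0 through 135 to 1583, with means of 126 and 324 and a ratio of -1.36 that was -0.97 in cluster 3. The other PdgfrbGFP plates had Ccn2 at 243 and 182, and the gene overlaps Gm15270 on the opposite strand. The summed level of the list was 9436 in Acta2GFP and 7061 in PdgfrbGFP, with 9067 and 8100 on the other PdgfrbGFP plates, 10770 and 11150 in Cspg4dsRED fibroblasts of other plates, above Acta2GFP, and row means of 6761 to 12470 and 5481 to 9193. In cluster 3 the sums were 7026 and 6522, while the medians had the reverse order, 6567 and 6680. Mural cells held 27610 and 28720. Jund, Fos and Egr1 were chosen after their values were seen.

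**Figure D5:**
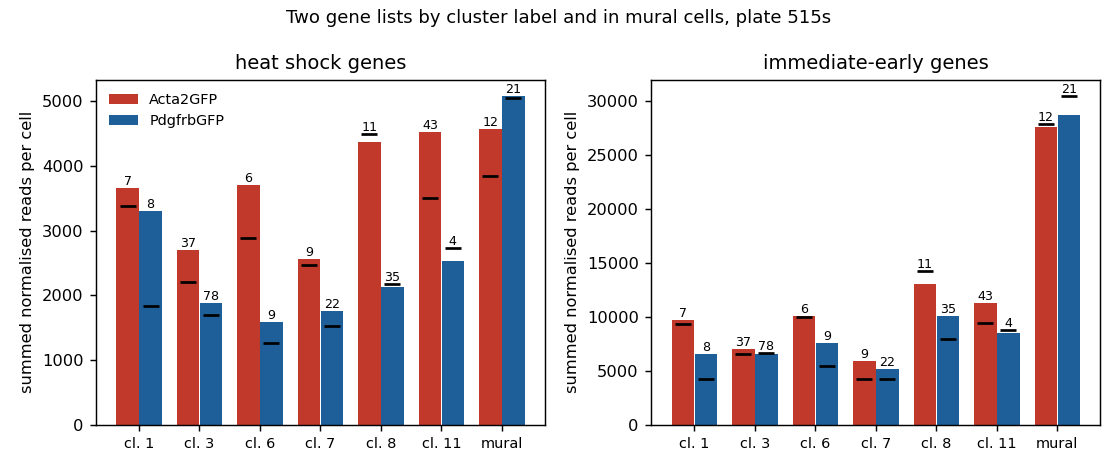
Summed normalised reads per cell of heat shock genes (left) and immediate-early genes (right) by cluster label and in mural cells of plate bladder_515s; bars are means, ticks medians, and numbers count cells. Acta2GFP bars are higher in each fibroblast cluster shown, by the most for heat shock genes in clusters 6, 8 and 11, and lower in mural cells for both lists, 4571 against 5075 and 27610 against 28720. The immediate-early median of cluster 3 is lower in Acta2GFP, 6567 against 6680.

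Fibrillar collagens that passed the filter were above 0 over all cells without reaching the fold. Of 10 listed genes 6 passed the filter, 0 were higher or lower by 2-fold (4.40% and 4.63% of all genes), and the ratios ran from 0.31 to 0.82 with a median of 0.49. With clusters at equal weight 1 was higher (9.15% of all genes), Col5a2 at 1.22, and in cells of 100000 to 250000 gene reads Col5a3 had -0.04. Col1a1 and Col1a2, the chains of type I collagen, had 4814 against 3502 and 4047 against 2807 normalised reads. Col3a1 ran from 234 through a median of 3406 to 10965 in Acta2GFP cells and from 217 through 2238 to 5930 in PdgfrbGFP cells, with means of 3639 and 2387. Its row means were 2767 to 4581 and 1488 to 2766, which did not overlap. Col5a2, a chain of type V collagen, had the largest ratio, 0.82, with 334 against 189. The summed collagen level was 13100 in Acta2GFP and 9091 in PdgfrbGFP, with row means of 10820 to 15040 and 5922 to 11690. PdgfrbGFP fibroblasts of plates bladder_074s and bladder_881s had 7692 and 9704, while C57BL6 fibroblasts had 11650 and PdgfraGFP fibroblasts 12990. Cspg4dsRED fibroblasts had 5923 on bladder_352s and 19690 in 10 cells on bladder_689s, so the other lines lay on both sides of Acta2GFP. In cluster 3 the sums were 13140 and 9042.

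Of 18 basement membrane genes 16 passed the filter, 0 were higher or lower (4.40% and 4.63% of all genes), 12 lay above 0 and the median ratio was 0.38, or 0.24 without cluster 11 and 0.17 in cluster 3. Hspg2, the gene of perlecan, had 268 against 175 and Col4a5 99.1 against 55.9. Nid1, a nidogen that links laminin to type IV collagen and was picked out after its values were seen, had 621 against 425, with rows of 550 to 702 and 309 to 535 that did not overlap. The list summed to 2807 and 2173. Small leucine-rich proteoglycans, which coat collagen fibrils, had 9 members that passed, of which 0 were higher and 1 lower (4.40% and 4.63% of all genes). The lower gene was Fmod, fibromodulin, with 73.8 against 163. The median ratio was -0.23 over all cells, -0.055 without cluster 11 and -0.116 in cluster 3. Prelp, a matrix anchor protein gene, had 841 against 1131. Their sum was 10670 in Acta2GFP and 12550 in PdgfrbGFP, with rows of 9768 to 12330 and 11130 to 15890, and the other PdgfrbGFP plates had 7830 and 7183, below both. Without cluster 11 the ratio of Fmod was -0.73, and in cluster 3 it was -0.12. Elastic fibre genes had 0 of 16 past the fold (9.04% of all genes), a median of 0.16 and sums of 4876 and 4815, or 5254 and 4590 in cluster 3. With clusters at equal weight 3 of them were higher (9.15% of all genes). Metalloproteinases and their inhibitors had 1 of 14 higher and 0 lower (4.40% and 4.63% of all genes). The higher gene was Mmp3, with 13.9 against 4.38, and its ratio of 1.47 turned to -0.45 without cluster 11.

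Hedgehog response genes were lower in Acta2GFP in part. In this pathway, ligand from the urothelium releases Smo from the receptor Ptch1, and Gli factors then switch on Gli1, Ptch1 and Hhip in the stroma. Of 9 listed genes 8 passed the filter, 0 were higher and 3 lower (4.63% of all genes), and the median ratio was -0.63. Gli1, the factor most used as a readout, had cells from 0 through a median of 0 to 307 normalised reads in Acta2GFP and from 0 through 0 to 692 in PdgfrbGFP. Its means were 17.3 and 52.6, a ratio of -1.55, and the other PdgfrbGFP plates had 29.5 and 30.04. Reads were found in 23.9% of thinned Acta2GFP cells (exact interval 16.5% to 32.7%) and 41.9% of PdgfrbGFP cells (34.1% to 49.9%). Hhip, the inhibitor that binds the ligand, had 4.63 against 33.8. Ptch1 had 53.4 against 81.5, a ratio of -0.60, and Gli3, mostly a repressor, had 33.5 against 17.2, a ratio of 0.93. Smo and Gli2, a Gli activator, had ratios of 0.22 and 0.19. Ptch1, Smo and Gli2 were chosen after their values were seen. The 5 PdgfrbGFP cells of cluster 5 had a summed level of 1598 against 313 over all PdgfrbGFP cells. Without clusters 5 and 9, 2 genes of the list were lower (4.43% of all genes) and the median was -0.41, while Gli1 had -1.54. Gli1 overlaps Arhgap9 on the opposite strand.

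Sub-epithelial fibroblast genes were lower in part. Of 6 genes that passed the filter 0 were higher and 3 lower (4.63% of all genes), and the median was -1.33. Tnc, tenascin-C, had 0.279 against 25.1 normalised reads, from 8 reads (exact Poisson interval 3 to 16) and 1200 reads (1133 to 1270). Cxcl14, a chemokine gene, had 29.1 against 109, and Ptgs1, the constitutive cyclooxygenase, 0.0724 against 15.2. Without clusters 5 and 9 the median of the list was 0.03 and the ratio of Tnc 0.20, and 2 members were still lower (4.43% of all genes), Cxcl14 at -1.47 and Ptgs1 at -3.01. In cluster 3 the ratio of Cxcl14 was 0.27 and that of Ptgs1 -1.71. Bmp5, a bone morphogenetic protein gene, had 7.19 against 13.2 and a ratio of -0.80, which was 0.85 without clusters 5 and 9 and 1.71 with clusters at equal weight, where 1 member was higher (9.15% of all genes), 2 were lower (10.5%) and the median was 0.17. Aldh1a2, which makes retinoic acid, had 0.872 against 22.4 and was the 1 lower gene of 8 steroid and retinoid genes that passed the filter (4.63% of all genes). Its ratio of -3.65 was -1.56 without those clusters, and short of the fold at -0.65 with clusters at equal weight and -0.42 without the top 5% of cells.

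In the Wnt system 15 of 25 genes passed the filter, with 3 higher (4.40% of all genes) and 3 lower (4.63%) and a median of -0.43. Lgr5, an R-spondin receptor, had 115 against 14.5 normalised reads, yet the median cell was at 0 in both lines, reads were found in 13.7% and 11.9% of thinned cells, and in cluster 3 the ratio was -0.51. Sfrp4, a secreted Wnt antagonist, had 54.4 against 22.3, and Wnt5a, a non-canonical ligand chosen after its values were seen, 11.3 against 4.56. Among the lower genes Dkk2, an antagonist at the co-receptor Lrp6, gave 1 read (exact Poisson interval 0 to 6) in Acta2GFP and 1181 reads (1115 to 1250) in PdgfrbGFP, where 7.50% of thinned cells had one. Sfrp2, an antagonist, had 11.4 against 61.9, and Wnt5b 3.85 against 16.4. The ratios of Dkk2 and Sfrp2 in cluster 3 were -0.37 and -0.40, short of the fold.

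The list of 11 glucocorticoid targets had 2 higher genes (4.40% of all genes) and 1 lower (4.63%), with a median of 0.30 that was -0.12 with clusters at equal weight. The higher genes were the metallothioneins Mt1 and Mt2, whose products bind metal ions. Mt1 ran from 0 through a median of 58.2 to 389 normalised reads in Acta2GFP cells and from 0 through 14.3 to 310 in PdgfrbGFP cells, with means of 80.5 and 39.5 and a ratio of 1.01, at the edge of the fold rule. It was 0.96 without cluster 11, 0.98 at equal weight, 0.89 in cells of 100000 to 250000 gene reads and 0.98 without clusters 5 and 9. So 1 member of 11 was higher in each of these, beside 5.22%, 9.15%, 5.94% and 4.66% of all genes. The ratio of Mt1 thus rests near the rule. Its row means of 61.6 to 96.3 and 25.9 to 58.9 did not overlap, and 94.0% and 66.3% of thinned cells had a read. The other PdgfrbGFP plates had 88.0 and 112, above both. Mt2 had 14.4 against 5.56 (19.9 and 24.1 on the other plates). The lower gene was Zbtb16, with 1.58 against 8.92, and Tsc22d3, the leucine zipper gene GILZ, had 77.8 against 145.

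Of 17 listed smooth muscle contractile genes 14 passed the filter, 2 were higher (4.40% of all genes) and 0 lower, and the median was 0.18. Actg2, the enteric smooth muscle actin, had 15.9 against 5.28 normalised reads, and Cnn1, calponin, 13.7 against 5.51. The ratio of Cnn1, 1.18, was 0.69 without cluster 11, 0.74 in cluster 3 and 0.22 at equal weight, and that of Actg2, 1.43, was 0.66 in cluster 3, all short of the fold. The mural cells of the plate had 293 and 403 of Actg2. Tagln and Myl9 had ratios of 0.13 and -0.09. Both were chosen after their values were seen. With the 5 clusters at equal weight 5 genes of the list were higher (9.15% of all genes). The summed level of the list was 1190 against 648 in cluster 7 and 1407 against 912 in cluster 8, where vascular mural markers were also higher in Acta2GFP, and 1017 against 616 in cluster 6, where they were lower. The medians were 948 and 629 in cluster 7, 857 and 860 in cluster 8 and 1060 and 707 in cluster 6, so in cluster 8 the medians lay close together and a few cells carried the difference of the means. Des and Myh11 stand in both lists. The part of mural markers in the contractile values was not tested.

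The rule on the rows of the plate, a description since rows share a mouse and a sort, found 20 genes whose 7 Acta2GFP row means all lay above the 9 PdgfrbGFP row means (0.208%) and 6 that lay below (0.0623%). Among them were Hspa5, Hspa8, Col3a1, Nid1, Fosb, Mt1, Erc1, Gm12840 and Gm29371 above, and Cirbp and Abca6 below.

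The remaining lists are set against 4.40% of all genes higher and 4.63% lower. Cytosolic ribosomal protein genes had 0 of 77, with a median of 0.17 and sums of 6811 and 6312, and mitochondrially encoded genes 0 of 9, with a median of 0.21. Over all cells interferon response genes had 0 of 13, adventitial fibroblast genes 0 of 13, BMP genes 0 of 16 and interstitial cell genes 0 of 4. In other views some of these passed the fold. BMP genes had 3 lower in cluster 3 (10.7% of all genes) and 2 higher at equal weight (9.15%). At equal weight interferon response genes had 2 higher and 2 lower (10.5% of all genes lower), and adventitial and interstitial cell genes 1 lower each. Chemokines and cytokines had 0 higher and 3 of 8 lower (4.63% of all genes): Cx3cl1, fractalkine, with 1.46 against 11.2, Lif, an interleukin-6 family cytokine, with 3.01 against 10.2, and Cxcl16 with 21.1 against 56.3. In cluster 3 the ratio of Cx3cl1 was -0.78, and without cluster 11 that of Cxcl16 was -0.96, both short of the fold. Against 4.63% of all genes, single genes were lower in the PDGF system (Pdgfc, 0.0875 against 8.92, of 6), the TGF-beta system (Tgfbr1, a type I receptor, 10.3 against 22.99, of 12), complement (C4b, 16.5 against 39.9, of 10), lipid handling (Lpl, lipoprotein lipase, 54.0 against 130, of 11), and Hox genes (Hoxd11, 1.63 against 7.44, of 6). In cluster 3 the ratios of Pdgfc (-0.07), Tgfbr1 (-0.96), Lpl (-0.93) and Hoxd11 (-0.76) were short of the fold, as was that of C4b without cluster 11 (-0.66) and at equal weight (-0.40). Of 5 cell cycle genes 1 was higher (4.40% of all genes), Mcm2, a subunit of the replicative helicase, with 7.39 against 0.944 and 7.26 and 5.96 on the other PdgfrbGFP plates. Of 3 Y-linked genes that passed the filter 1 was higher (4.40% of all genes), Eif2s3y, with 20.3 against 6.41, with 27.7 and 36.8 on the other PdgfrbGFP plates, while Ddx3y had 32.7 against 32.6. In cluster 3 alone 2 of the 3 were higher (9.10% of all genes), Eif2s3y at 1.58 and Uty at 1.61, which was 0.47 over all cells. Of 2 Schwann cell genes that passed the filter 1 was higher (4.40% of all genes), Ngfr, a neurotrophin receptor, with 11.7 against 3.99 normalised reads and a ratio of 0.66 in cluster 3.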

How the data were processed

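Smart-seq2 libraries of single sorted bladder cells were analysed from the deposited table of raw read counts, with 46517 gene rows and 92 spike-in rows. Before deposit, the authors trimmed the reads, mapped them to GRCm38 with TopHat2 and made the counts per gene with featureCounts; the annotation release and strand setting are not given in the sources used here. The authors gated out doublets in the sort and removed cells of low quality and, as possible doublets, cells with very many genes, and left out cells without Pdgfra or Pdgfrb or with endothelial or immune signatures; no further doublet caller was run here, and cluster labels are those of the authors. Reads carry no molecular identifiers, so intervals (Clopper-Pearson or exact Poisson) cover counting error only.

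Gene reads of each cell were scaled to 500000, spike-ins left out. Genes were kept with a count above 20 in at least 3 of the 279 cells and 300 reads in all. Coordinates came from GENCODE M21, which matched 46005 gene rows. As the labels name no animal, each line was 1 sample, and a 2-fold rule on (mean + 1) took the place of a test. Shares of cells were taken after thinning to 50000 reads, which left 117 Acta2GFP and 160 PdgfrbGFP cells. Named genes were the reporter genes, up to 15 genes a direction past the fold in every view, up to 5 members of each of 35 lists with the largest ratio, and genes within 200 kb of Acta2 and Pdgfrb; others are marked, and some genes are not reported here. The members and lists were chosen with earlier results of these data known. Python 3.11.15, numpy 2.4.6, scipy 1.17.1, pandas 2.3.3 and R 4.3.3 were used, with factors from edgeR 4.0.16 and DESeq2 1.42.0 as alternatives.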

Additional observations from a re-analysis of the deposited data

How the results depend on the processing

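No paired analysis was possible because each line is 1 sample and the labels give no replicate numbers, and so no replicate could be left out. The 424 higher and 446 lower genes (4.40% and 4.63% of those tested) became 876 and 1028 in cluster 3 alone (9.10% and 10.7%), 9.15% and 10.5% of genes with clusters at equal weight, 572 and 825 in cells of 100000 to 250000 reads (5.94% and 8.57%), 153 and 82 by the mean of log2 values (1.59% and 0.852%), 949 and 601 without the top 5% of cells (9.86% and 6.24%), 54 and 46 with a pseudocount of 10 (0.561% and 0.478%), 820 and 951 with no filter (3.6% and 4.18% of 22777), 306 and 291 with a mean of at least 10 reads (4.01% and 3.81% of 7628), 1250 and 1307 at 1.5-fold (12.98% and 13.57%), and 31 and 39 at 4-fold (0.322% and 0.405%). Factors from edgeR (TMM) gave 591 and 584, and those from DESeq2 591 and 583. The 11 higher and 11 lower genes of all views became 18 and 14 without the depth view, 18 and 18 without the cluster 3 view, 70 and 90 with a read in 10% of cells, and 3 and 4 with a pseudocount of 10. Of 15 heat shock genes, those higher went from 6 to 3 in cluster 3 (9.10% of all genes) and to 3 in the depth view (5.94%). Of 28 immediate-early genes, those higher went from 5 to 3 without cluster 11 (5.22% of all genes), to 2 in cluster 3 (9.10%) and to 3 at equal weight (9.15%). At equal weight lower ones went from 1 to 0 (10.5% of all genes). Of 15 Wnt genes, those higher went from 3 to 1 in cluster 3 (9.10% of all genes), and lower ones from 3 to 5 in the depth view (8.57%). Among named genes past the fold, the sign turned for Cxcl14 (0.27) and Lgr5 (-0.51) in cluster 3, Mmp3 without cluster 11 (-0.45) and at equal weight (-2.41), and Tnc at equal weight (0.45) and without clusters 5 and 9 (0.20). Of 969 values of the 61 named genes past the fold, 814 stayed past it in the same direction, 149 kept the direction under the fold and 6 had the opposite sign. Leaving out clusters 5 and 9, and counting list members by view, were chosen after seeing the data. The cause of these shifts was not tested.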
